A study of Drosophila melanogaster with 60 samples.

Results

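The genes described here are 60 transcripts of the adult fly's abdominal fat body whose fitted daily peak fell around lights off in wild-type flies at both 25 °C and 18 °C. A cosine of 24 h period was fitted by least squares to log2(TPM + 1) of each gene, where TPM is the transcript abundance scaled for length and library total. Genes were kept when their mean TPM was at least 5 in both wild-type groups and their fitted peak lay between zeitgeber time (ZT, hours after lights on) 10 and 18 in both. They were then ranked by the lower of their R² values (the share of the variance between libraries that the cosine takes up), and the first 60 were taken. Core clock genes and genes whose symbols start with Ugt, Gst, Cyp, Rp or mRp had been set aside. Of 13969 genes in the deposited tables, 6674 met the mean level, 541 also met the peak window and the name rule, and 60 were the members. All 60 passed the filter on low counts that left 9348 genes for testing.

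In flies the proteins CLOCK and CYCLE switch on genes in the hours around dusk, among them per and tim, whose products later shut that activity down. The fat body stores fat and glycogen, makes fatty acids and secretes proteins and peptide hormones into the blood. Its transcripts follow its own clock as well as feeding, light and signals from the brain.

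RNA came from mated females of Drosophila melanogaster, about 3 days old at the start, which were held for 5 days in cycles of 12 h of light and 12 h of dark. Fat tissue still attached to the abdominal epidermis, from 10 flies per sample, was taken after gut, ovaries and Malpighian tubules had been removed. Wild type was w1118 at 25 °C (24 libraries) and at 18 °C (24 libraries), every 2 h with 2 replicates a time. The third group, at 25 °C, carried Clk-Jrk, a mutant allele of Clock (Clk) present in all cells, backcrossed for 7 generations to w1118, and was sampled every 4 h with 2 replicates a time (12 libraries). All groups ate the same sucrose and yeast food. Flies were held in a pair of incubators with opposite light schedules so that dissection could be done by day. The labels do not say which sample came from which, so incubator and time of day cannot be told apart. Nothing in the labels says whether the 2 replicates came from separate fly cohorts beyond being independent samplings.

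The libraries held between 4923858 and 46590109 estimated counts. The columns of replicate 1 at 18 °C for ZT 2 and ZT 20 were identical and were left out, which leaves n = 22 there. The fat body label was met, with a summed TPM of 10 fat body markers of 14273 or more in every library used. Other tissues were also present: 6 libraries of replicate 1 at 25 °C and 1 at 18 °C held high RNA of ovary, gut or photoreceptor markers. In Clk-Jrk, Clk RNA had a median of 3.22 TPM (range 1.33 to 5.77), against 4.3 (2.30 to 8.39) in wild type at 25 °C and 3.46 (1.35 to 7.43) at 18 °C. Since the allele is a point mutation, that level does not check the labels. The amplitude of tim RNA was 1.41 in wild type at 25 °C and 0.23 in Clk-Jrk on the log2 scale.

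The wild-type courses chose the members, so the values in the next paragraphs describe them and carry no test. At 25 °C the median R² was 0.288 (range 0.210 to 0.694), the median amplitude, peak minus mean on the log2 scale, was 0.25, and the median peak was ZT 14.1. At 18 °C the median R² was 0.322 (0.215 to 0.634), the median amplitude was 0.36 and the median peak ZT 13.6. The fitted peak stood a median of 1.42-fold over the trough at 25 °C and 1.64-fold at 18 °C, so most of these were shallow rhythms. On log2(TPM + 1), amplitudes were larger at 18 °C in 47 members and smaller in 13. The order depended on the scale. On log2 CPM with TMM scaling, which does not scale for length, the median amplitude was 0.34 at 25 °C and 0.31 at 18 °C. It was 0.24 and 0.33 on log2(TPM + 1) without the libraries rich in other tissues, and 0.29 and 0.41 with a step at lights off as a further term. Over all genes at the mean level the medians were 0.14 and 0.15 on log2(TPM + 1). In 31 members the peak was earlier at 18 °C and in 29 later, 18 of them within 1 h of the peak at 25 °C. Fitted to a single replicate, 53 members at 25 °C had a peak in the window in replicate 1 and 53 in replicate 2, and at 18 °C 51 and 57 did. The rule had used the libraries of both replicates, so these counts are no independent check.

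**Figure D1:**
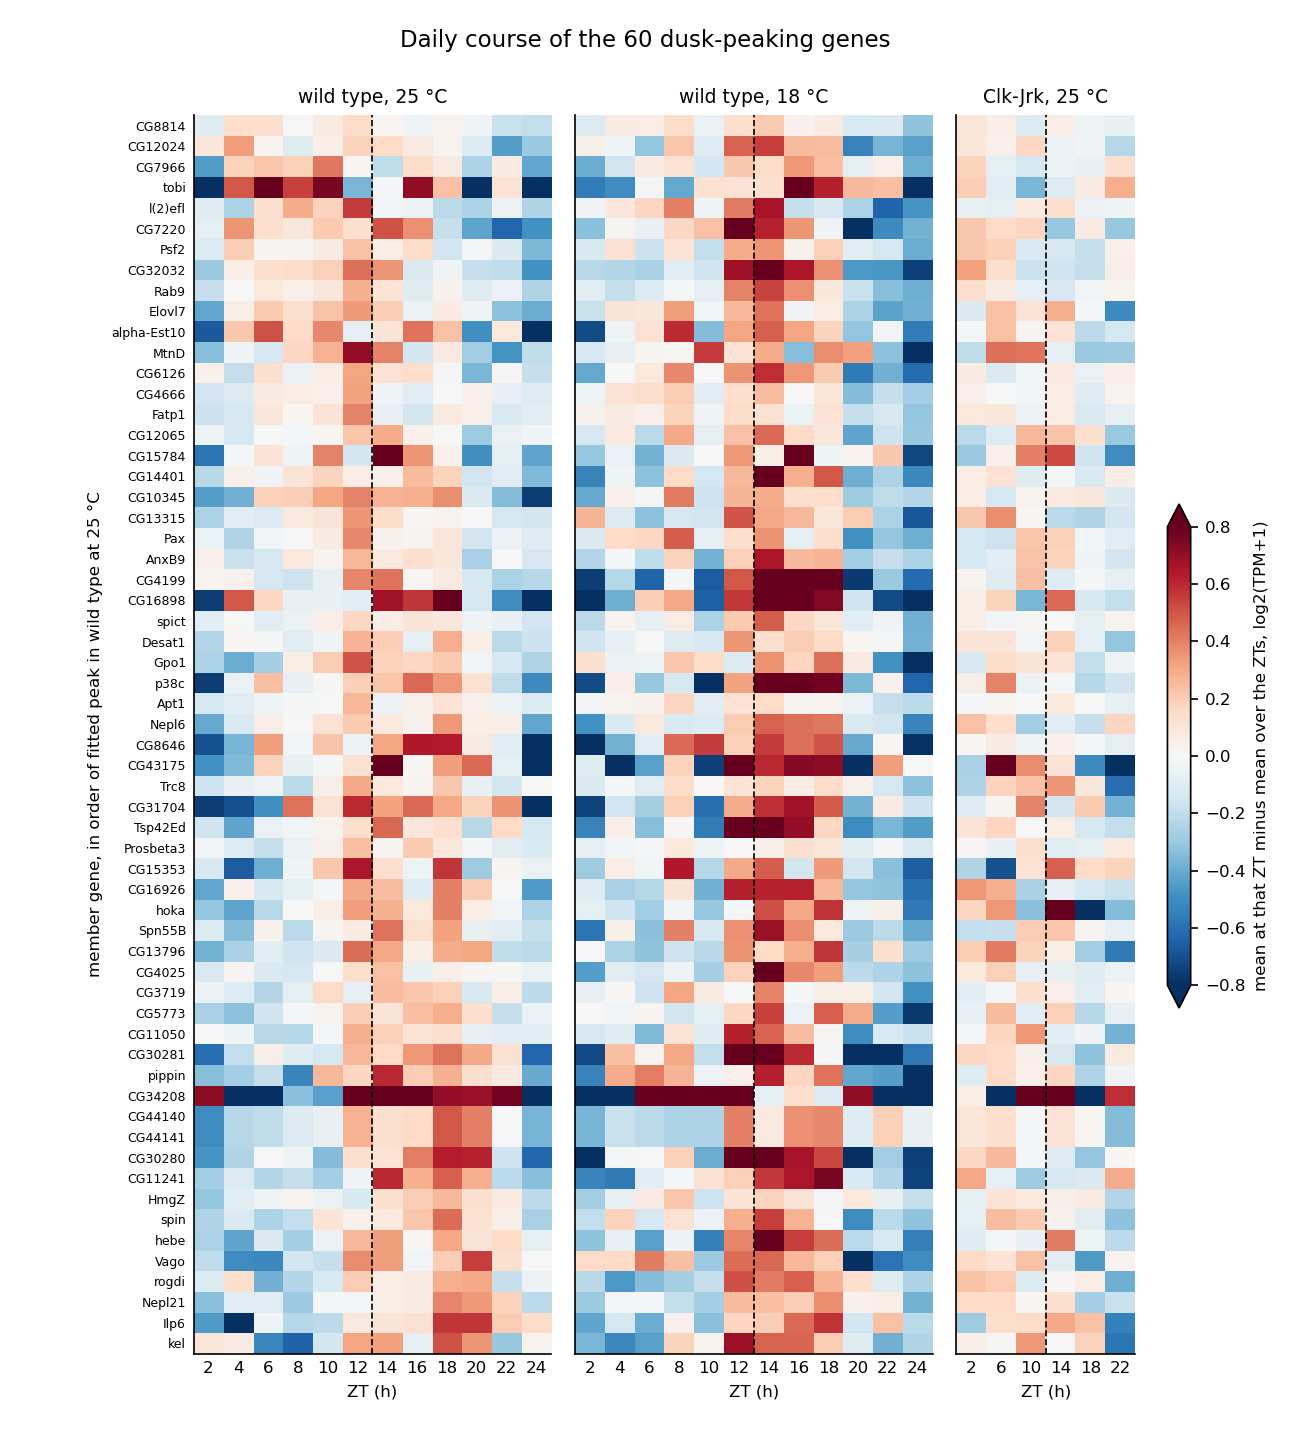
Each row is 1 of the 60 genes, in order of fitted peak in wild type at 25 °C, and each column a zeitgeber time (ZT, h); colour is the mean of log2(TPM+1) over replicates at that time minus the mean over all times of the group, and the dashed line marks lights off. In both wild-type panels red cells gather between ZT 12 and ZT 18, where the highest mean lay in most members, and the lowest mean lay at ZT 24 in 19 members at 25 °C and 27 at 18 °C.

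Read by time point, the highest mean at 25 °C stood at ZT 12 in 24 members, at ZT 14 in 12 and at ZT 18 in 15. At 18 °C it stood at ZT 14 in 28 members, at ZT 12 in 9 and at ZT 8, before lights off, in 8. Single libraries weighed on this: replicate 1 at ZT 12 held the highest value of 14 members at 25 °C, and replicate 1 at ZT 14 that of 15 members at 18 °C. Many of the lowest values lay in libraries rich in other tissues. At 25 °C replicate 1 at ZT 4, ZT 2 and ZT 24, with 15914, 10854 and 13431 TPM of ovary markers, held the lowest value of 15, 11 and 6 members. At 18 °C replicate 1 at ZT 24, with 1395 TPM of photoreceptor markers, held that of 21 members. Markers of some other tissues also peaked around dusk, first those of muscle. Their summed TPM peaked at ZT 15.4 at 25 °C (R² 0.253) and at ZT 10.2 at 18 °C (R² 0.0397), and 8 of the 14 that reached the mean TPM also peaked in the window at both temperatures, against 9.13% of all genes at that level. The summed TPM of oenocyte markers peaked at ZT 15.3 and ZT 15.4 (R² 0.117 and 0.108), with 2 of 4 markers in the window at both temperatures. That of gut markers peaked at ZT 13.8 and ZT 10.4 (R² 0.0674 and 0.175), with 6 of 18 in the window. The ovary marker sum at 25 °C peaked at ZT 2.53, opposite to the members (R² 0.301). The part of other tissues in the members' courses was not tested. Without the 7 libraries rich in other tissues, 50 members at 25 °C and 59 at 18 °C had a fitted peak in the window. The share of all genes at the mean level that peaked there was 43.1% at 25 °C and 56.3% at 18 °C under that setting, and 18.0% and 49.4% with all libraries.

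Lipid enzymes stood among the members. RNA of Elovl7 (FBgn0037534), a fatty acid elongase, ran from 45.0 to 114 TPM at 25 °C (median 90.0) and from 38.0 to 105 TPM at 18 °C (median 68.5). Its lowest value at 25 °C was at ZT 2 and its highest at ZT 12, and both replicates peaked at ZT 11.3. The fitted peaks were ZT 11.3 ± 1.0 h and ZT 10.9 ± 1.0 h (SE), with amplitudes of 0.30 ± 0.08 and 0.31 ± 0.08. Desat1 (FBgn0086687), the desaturase that puts the double bond into stearate and palmitate, was the most abundant member, with 2564 to 4794 TPM at 25 °C (median 3110) and 4159 to 7376 TPM at 18 °C (median 5529). Its course was shallow, with amplitudes of 0.17 ± 0.07 and 0.20 ± 0.07 and peaks at ZT 13.9 and ZT 14.4. Fatp1, a fatty acid transport protein, peaked at ZT 11.7 and ZT 10.6, and Apt1, a thioesterase that takes palmitate off proteins, at ZT 14 and ZT 11.2. A list for making and storing fatty acids holds Desat1 and Fatp1. Of its 24 genes at the mean level 8 peaked in the window at both temperatures, against 9.13% of all genes at that level. The 8 include these 2, which the rule had chosen, and some marker lists of other tissues had shares as high or higher, as given above.

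Sugar metabolism was represented by tobi, pippin and Gpo1. RNA of tobi (FBgn0261575), an alpha-glucosidase known to respond to the brain's insulin-producing cells, varied most from library to library among these, from 48.9 to 841 TPM at 25 °C (median 318) and from 168 to 612 TPM at 18 °C (median 304). High and low libraries lay side by side in time at 25 °C, and its highest mean there was at ZT 6, outside the window. Its fitted peak was ZT 10.1 ± 1.5 h at 25 °C and ZT 15.9 ± 1.1 h at 18 °C, which was the largest later shift of the members (5.73 h). The sugar transporter gene pippin peaked at ZT 15.4 and ZT 11.6, and Gpo1, the mitochondrial glycerol-3-phosphate dehydrogenase, at ZT 13.9 and ZT 12.7.

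Among secreted products and extracellular enzymes, Ilp6 (FBgn0044047), the insulin-like peptide made by the fat body, ran from 10.5 to 47.8 TPM at 25 °C (median 24.6) and from 25.7 to 101 TPM at 18 °C (median 44.8). Its highest library was replicate 1 at ZT 18 at both temperatures, and it peaked late, at ZT 17.8 ± 0.98 h and ZT 16.8 ± 1.3 h, with amplitudes of 0.44 ± 0.11 and 0.36 ± 0.12. Nepl6 and Nepl21 belong to the neprilysin-like metallopeptidases, and Spn55B to the serpins, inhibitors of serine proteases. RNA of Nepl6 (FBgn0259716) ran from 25.9 to 54.2 TPM at 25 °C (median 42.4) and from 26.7 to 72.1 TPM at 18 °C (median 42.8), with peaks at ZT 14 ± 1.1 h and ZT 14.4 ± 0.94 h. The 25 °C values lay almost wholly within the 18 °C range, which reached higher. Spn55B peaked at ZT 15.1 and ZT 13.2 and Nepl21 at ZT 17.7 and ZT 15.9. Vago, a secreted antiviral factor, had the largest earlier shift, from ZT 17.2 to ZT 10.7 (−6.53 h).

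Genes of membranes, traffic and adhesion made up another group. RNA of hoka (FBgn0035583), a protein of the smooth septate junction, ran from 69.7 to 189 TPM at 25 °C (median 118) and from 74.9 to 290.4 TPM at 18 °C (median 147). The highest library was again replicate 1 at ZT 18 in both groups, and the fitted peaks were ZT 15.0 ± 0.72 h and ZT 16 ± 1.2 h, with amplitudes of 0.32 ± 0.06 and 0.36 ± 0.11. RNA of spin (spinster), a lysosomal transporter, had its peak 4.00 h earlier at 18 °C, at ZT 12.4 against ZT 16.4. The remaining members of this kind were Rab9, a small GTPase of late endosomes, spict, an endosomal inhibitor of BMP signalling, AnxB9, an annexin, Pax, the adhesion adaptor paxillin, and Tsp42Ed, a tetraspanin.

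Stress, protein turnover and nuclear proteins were represented by single genes. They were MtnD, a metallothionein that binds metals, l(2)efl, a small heat shock protein, and p38c, a stress-activated MAP kinase. Protein turnover was represented by Prosbeta3, a proteasome subunit, Trc8, a ubiquitin ligase of the endoplasmic reticulum, and kel, a Cullin adaptor best known from ovarian ring canals. Nuclear members were HmgZ, a chromatin protein, and Psf2, a subunit of the GINS replication complex. The esterase gene alpha-Est10 and the genes hebe and rogdi completed the named ones. The other 30 carry CG symbols only. Those not described elsewhere here are CG7220, CG12065, CG14401, CG15784, CG16898, CG16926 and CG4666.

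First in rank stood CG32032 (FBgn0043806), which ran from 31.8 to 78.8 TPM at 25 °C (median 50.1) and from 33.6 to 138 TPM at 18 °C (median 59.0). At 18 °C its means rose from 56.3 TPM at ZT 10 to 105 at ZT 12 and 120 at ZT 14, and were back at 44.7 at ZT 20. The fitted peaks were ZT 11.1 ± 0.80 h and ZT 13.9 ± 0.76 h, and the R² values 0.520 and 0.571. CG8646, second in rank, peaked at ZT 14.1 and ZT 13.2 with amplitudes of 0.51 ± 0.12 and 0.59 ± 0.11. The largest fitted amplitudes, 1.38 at 25 °C and 1.59 at 18 °C, were those of CG34208, a short transcript listed at 0 TPM in some libraries and at up to 38.7 and 61.5 TPM in others. The best single fit was that of CG10345 at 25 °C (R² 0.694), which replicate 1 at 18 °C did not repeat, with a peak at ZT 21.8 in that replicate alone. CG3719, CG13796 and CG8814, also among the first 12, had peaks between ZT 10.0 and ZT 16.4 and amplitudes of 0.33 or less. Under each of 9 other ways of choosing the first 60, 4 members stayed in: CG32032, CG30281, hebe and hoka.

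The limit of the list was not a gap. The members ranked 58 to 60, CG12024, rogdi and CG4025, had lower R² values of 0.211, 0.211 and 0.210, and the next genes outside, Xrp1, Alas and CG4572, had 0.208, 0.207 and 0.206.

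**Figure D2:**
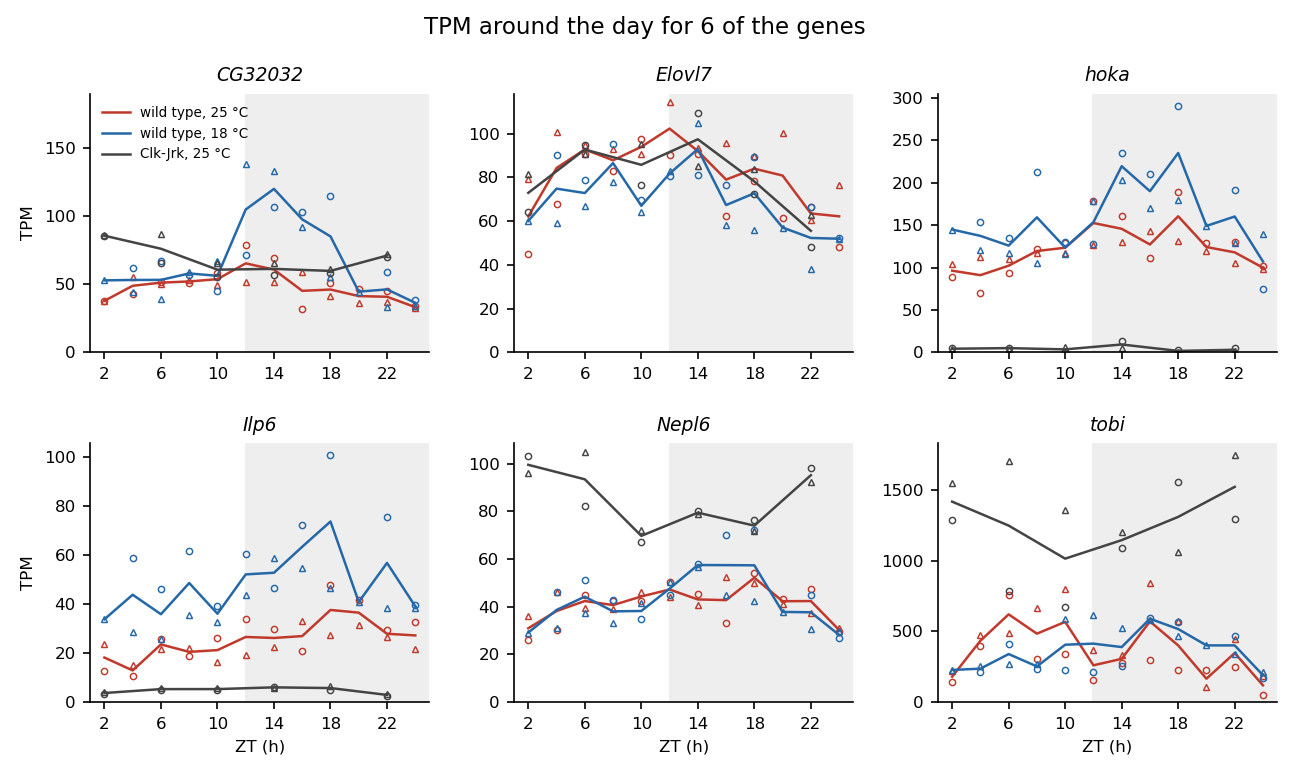
TPM (vertical axes, starting at 0) against zeitgeber time for 6 of the genes in wild type at 25 °C (red), wild type at 18 °C (blue) and Clk-Jrk at 25 °C (grey); circles are replicate 1, triangles replicate 2, lines join the means, and the night is shaded. The Clk-Jrk points of hoka and Ilp6 lie below every wild-type point at 25 °C, those of Nepl6 lie above them, and those of Elovl7 lie within them.

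What the members share beyond their courses was limited. All 60 are protein coding. By the BDGP6.54 annotation, 16 lie on chromosome arm 2R, 15 on 2L, 14 on 3R, 8 on X and 7 on 3L, beside 20.7%, 18.3%, 24.7%, 16.4% and 18.8% of the genes tested. Several pairs are close neighbours, which is a description since the list was chosen on values. CG32032 (3L:9093053-9094856) and CG13315 (3L:9096877-9097494) lie 2020 bases apart on the same strand, CG30280 and CG30281 155 bases apart on 2R, CG4199 and CG4025 3482 bases apart on X, and Rab9 and Pax 5977 bases apart on 2L. CG44140 and CG44141 held identical values in every library and amount to 1 measurement. For 20 members some exon bases also belong to another gene, and for pippin, Vago, CG11241, CG31704 and CG15353 at least 20% do. The reads of such pairs may have been divided between them, so their values are less certain.

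The first comparison not used to rank the members asks whether their mean level over the day differed with temperature. Most members held more RNA in the cold. At an edgeR adjusted p under 0.05, 35 of 60 were higher at 18 °C (n = 22) than at 25 °C (n = 24), against 23.3% of all genes tested, and 3 were lower, against 25.2%. The other 22 did not pass, and 48.5% of all genes passed in either direction. Among the genes at the members' minimum level the shares were 21.5% and 24.5%. The median log2 difference was 0.40 over the members and −0.02 over all genes tested, and in 24 of the called members the means differed in 1 direction at each of the 12 times. Of 9 fat body markers tested, 0 were higher and 1 was lower at 18 °C, with a median log2 difference of −0.33. The summed TPM of the 10 fat body markers ran from 52814 to 180615 at 25 °C (median 90048). At 18 °C it ran from 14273 to 112989 (median 61048). RNA of other tissues moved too: 10 of 17 muscle and 8 of 10 haemocyte markers were higher at 18 °C, and 19 of 21 ovary markers lower. The summed TPM of muscle markers ran from 1759 to 4081 at 25 °C and from 2532 to 7856 at 18 °C, that of haemocyte markers from 163 to 290 and from 241 to 504, and that of ovary markers from 228 to 15914 and from 30.8 to 5925. Of these markers only Vm26Ac had a median of 0, at 18 °C. The part of these tissues, the fat body included, in the members' difference was not tested. In whole tissue a change in the number of cells of a type and a change in RNA per cell cannot be told apart. Without the 7 libraries rich in other tissues 31 members were higher and 4 lower, against 19.3% and 18.6% of all genes tested.

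The largest rises at 18 °C were those of Vago, CG6126, CG43175, Ilp6 and CG13315. RNA of Vago ran from 151 to 478 TPM at 18 °C (median 310) and from 75.3 to 243 TPM at 25 °C (median 149), and was higher at 11 of 12 times (2.11-fold, log2 1.08 ± 0.14 SE, edgeR adjusted p = 1.92e-06). All exon bases of Vago are shared with an antisense gene, and the sources used here do not say whether the counting used strand. CG6126 rose 2.09-fold at 12 of 12 times, from a median of 42.5 to 92.2 TPM (log2 1.06 ± 0.06, adjusted p = 3.31e-11). RNA of Ilp6 rose 1.83-fold at 12 of 12 times (log2 0.87 ± 0.13, adjusted p = 1.85e-05), although its ranges overlapped between 25.7 and 47.8 TPM. CG13315 rose 1.80-fold, from a median of 2080 to 3686 TPM, and CG43175 1.83-fold, at 12 and 10 of 12 times (adjusted p = 1.55e-05 and 0.00221).

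Lipid genes were split. Desat1 rose 1.73-fold (log2 0.79 ± 0.10, adjusted p = 1.19e-06) and Fatp1 1.58-fold (0.66 ± 0.08, 7.88e-07), each at 12 of 12 times, while Apt1 stood at 0.07 ± 0.08 (0.436). The value of Elovl7, −0.28 ± 0.13 (edgeR adjusted p = 0.0687), depended on the libraries used. It passed as lower without replicate 1 (−0.54, adjusted p = 0.00222), without the libraries rich in other tissues (−0.41, 0.0165), with the equal columns kept (−0.31, 0.032) and with the replicate number as a block (−0.28, 0.0385), and was −0.014 without replicate 2 (0.942). In the whole list for making and storing fatty acids, 11 of 25 genes were higher and 3 lower at 18 °C, with a median of 0.22. In the list of insulin and FoxO signalling, which holds Ilp6, 5 of 16 were higher and 1 lower (median 0.10).

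Among members that passed there were also the chromatin gene HmgZ, the metallothionein gene MtnD and junction, adhesion and traffic genes. HmgZ was the only member whose TPM ranges did not touch, with 134 to 210 TPM at 18 °C and 66.8 to 128 TPM at 25 °C, beside 0.257% of all genes (1.56-fold, log2 0.64 ± 0.07, edgeR adjusted p = 3.51e-07). Rab9, Pax, AnxB9, Tsp42Ed and kel were higher at 12 of 12 times, by 1.37-fold to 1.74-fold. Small rises passed as well, such as 1.2-fold for Prosbeta3 (adjusted p = 0.000498). The rise of CG32032 (log2 0.39 ± 0.12, edgeR adjusted p = 0.0122) and that of hoka (0.34 ± 0.12, 0.0183) no longer passed without replicate 2, with differences that were no smaller (0.41, adjusted p = 0.0706, and 0.39, 0.116). That of CG32032 also did not pass without the libraries rich in other tissues (0.35, adjusted p = 0.0779).

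The 3 members that fell at 18 °C were CG8646, l(2)efl and alpha-Est10. RNA of CG8646 ran from 1.77 to 8.92 TPM at 18 °C and from 2.32 to 16 TPM at 25 °C, and was lower at each of the 12 times (log2 −0.75 ± 0.14, edgeR adjusted p = 0.000228). The small heat shock gene l(2)efl fell from a median of 220 to 129 TPM and was lower at all times but 1 (−0.65 ± 0.16, adjusted p = 0.00261). The fall of alpha-Est10 (−0.46 ± 0.11, adjusted p = 0.00136) did not pass without replicate 2 (adjusted p = 0.318). For CG34208 the edgeR difference had an SE of 7.49. Its one library used at ZT 2 at 18 °C was listed at 0, and it did not pass by DESeq2 (0.45, adjusted p = 0.484) or limma-trend (0.44, 0.449) either.

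**Figure D3:**
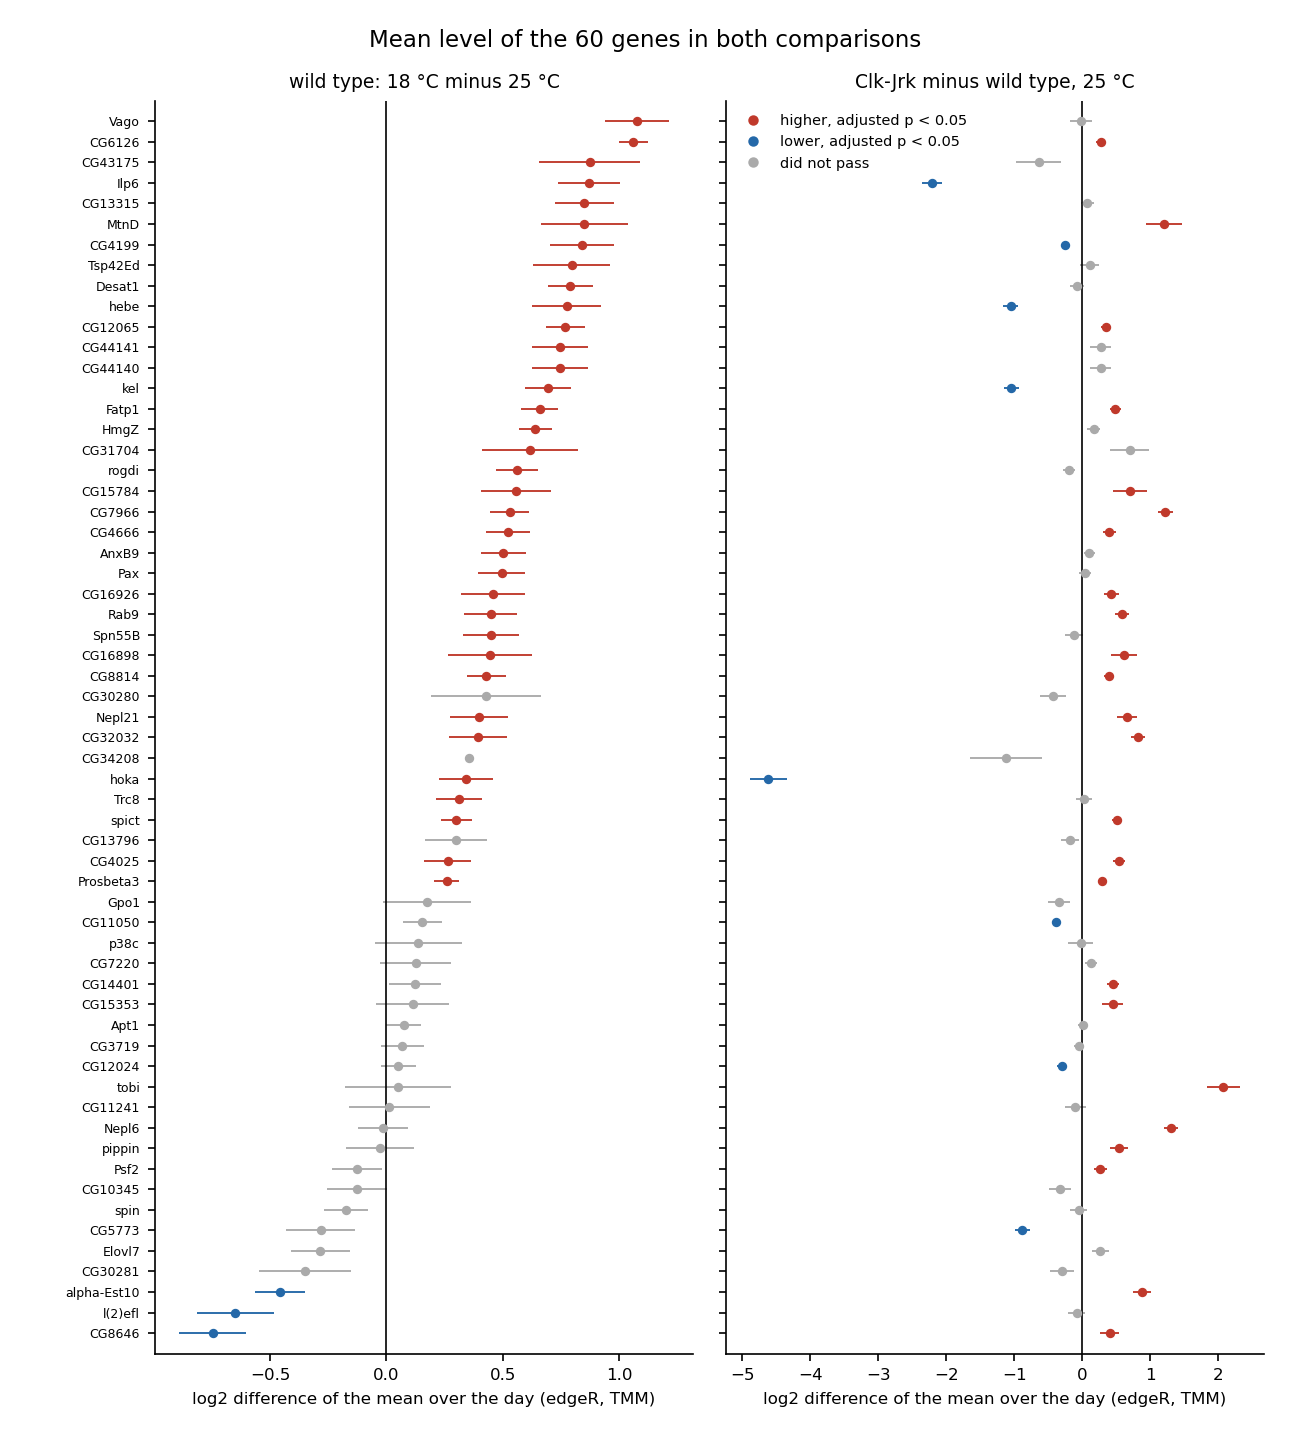
Log2 difference of the mean level over the day (horizontal axes, edgeR with TMM scaling) for each of the 60 genes, with bars of 1 SE, between wild type at 18 °C and 25 °C (left) and between Clk-Jrk and wild type at 25 °C (right), which have different horizontal scales; red and blue points passed as higher and lower, grey points did not pass, and CG34208 has no bar on the left because its SE was 7.49. On the left most points lie to the right of 0, with 35 higher and 3 lower, and on the right 24 are higher and 8 lower, with hoka at −4.62 and tobi at 2.07 as the extremes.

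The same measure in Clk-Jrk (n = 12) against wild type at 25 °C at the same 6 times (n = 12) asks how the members' levels stood when Clock was mutant. It shares its wild-type libraries with the temperature comparison. Here the members went both ways: 24 of 60 were higher, against 18.6% of all genes tested, and 8 were lower, against 24.9%. The other 28 did not pass, and 43.5% of all genes passed in either direction. Among genes at the members' minimum level the shares were 23.8% and 20.3%. Of the 32 called members, 20 differed in 1 direction at all 6 times. The median log2 difference was 0.12 over the members and −0.08 over all genes. The direction of small differences depended on the scaling. On log2(TPM + 1) the median of all genes moved to −0.28 and that of the members to −0.15. By limma-trend on that scale 13 members were called higher and 26 lower. With the median of all genes set to 0 on that scale, an alternative chosen after seeing the shift, 26 were higher and 8 lower. The median of the members was then 0.13. Without replicate 2, 13 were higher and 9 lower, with medians of 0.03 over the members and −0.05 over all genes.

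RNA of hoka showed the largest difference of any member. It lay between 0.961 and 13.6 TPM in the 12 Clk-Jrk libraries (median 4.80) and between 88.7 and 189 TPM in the 12 wild-type libraries (median 123). The groups did not overlap, and hoka was lower at 6 of 6 times (log2 −4.62 ± 0.27, edgeR adjusted p = 2.68e-08). The gene lies on chromosome arm 3L (4898900 to 4900869), 2.86 Mb from Clk on the same arm, so an effect of the Clk-Jrk allele and one of a linked variant kept through the backcross cannot be told apart. Within 5 Mb of Clk, a window set after hoka's value was seen, 46.2% of 773 genes tested were called and 5.69% differed by at least 2 on the log2 scale, against 43.2% and 3.30% of the 8575 genes elsewhere. Septate junctions of the smooth type occur in gut and Malpighian tubule. The summed TPM of 7 tubule markers ran from 18.6 to 126 in Clk-Jrk (median 77.2). In all 24 wild-type libraries at 25 °C it ran from 52.4 to 257 (median 142). None of these markers had a median of 0 in either group. For 26 gut markers the sum ran from 18.8 to 1389 in Clk-Jrk (median 66.4). It ran from 14.8 to 15423 in the same wild-type libraries (median 61.9). Of the gut markers 7 had a median of 0 in Clk-Jrk and 5 in wild type. The part of both tissues in the difference of hoka was not tested. CG32032, CG13315 and Apt1 lie in the window around Clk too, with log2 differences of 0.82, 0.07 and 0.01.

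RNA of Ilp6 was lower in Clk-Jrk as well, at 2.55 to 6.38 TPM (median 4.93) against 12.6 to 47.8 TPM (median 25.8) in wild type. These ranges did not overlap either, and the difference held at 6 of 6 times (log2 −2.21 ± 0.15, edgeR adjusted p = 1.57e-07). Ilp6 was thus lower in Clk-Jrk and higher at 18 °C than in the same wild-type group at 25 °C. In the list of insulin and FoxO signalling 11 of 16 genes were lower in Clk-Jrk and 1 was higher (median −0.52). The ring canal gene kel (−1.05 ± 0.11, adjusted p = 1.04e-05), hebe (−1.05 ± 0.11, 7.29e-06) and CG5773 (−0.88 ± 0.11, 4.18e-05) were lower at 6 of 6 times, and CG4199, CG11050 and CG12024 fell by 0.25, 0.38 and 0.30. For hebe (13.3 to 24.9 TPM against 27.1 to 56.9) and CG5773 (256 to 396 TPM against 451 to 867) the groups did not overlap. Together with Nepl6 and CG7966, described next, the members whose TPM did not overlap numbered 6, against 1.95% of all genes.

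Of the members that were higher, tobi had the largest rise, with 670.5 to 1747 TPM in Clk-Jrk (median 1292) and 138 to 797.5 TPM in wild type (median 336). The ranges overlapped between 670.5 and 797.5 TPM, and the means were higher at 6 of 6 times (4.21-fold, log2 2.07 ± 0.24, edgeR adjusted p = 2.5e-05). The peptidase-like gene Nepl6 stood at 67.2 to 105 TPM against 25.9 to 54.2 TPM, without overlap (2.46-fold, 1.30 ± 0.11, adjusted p = 7.75e-07). CG7966 was 2.33-fold higher, at 71.9 to 110 TPM against 32.1 to 71.6 TPM, so that its ranges just missed each other (1.22 ± 0.11, adjusted p = 2.03e-06). MtnD rose 2.3-fold and alpha-Est10 1.84-fold (adjusted p = 0.0025 and 0.000132). Without replicate 2 neither passed (adjusted p = 0.0658 and 0.0813).

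CG32032, first in rank, rose 1.77-fold, at 55.7 to 86.7 TPM against 36.8 to 69.6 TPM (log2 0.82 ± 0.10, edgeR adjusted p = 3.97e-05). Smaller rises passed for CG8646 (0.40 ± 0.14, adjusted p = 0.0297) and CG8814 (0.40 ± 0.07, 0.000419), and both were lost on the TPM scale (adjusted p = 0.465 and 0.0596). CG8646 was also lost without either replicate (adjusted p = 0.0627 and 0.586). Fatp1 rose 1.40-fold at 6 of 6 times (0.49 ± 0.08, adjusted p = 0.000367), pippin 1.45-fold and Rab9 1.5-fold. The lipid genes Elovl7 (0.27 ± 0.12, adjusted p = 0.0915), Desat1 (−0.08 ± 0.10, 0.544) and Apt1 (0.01 ± 0.08, 0.899) did not pass. On the TPM scale Desat1 passed as lower (−0.38, adjusted p = 0.00359), as did spin, CG3719, CG13796 and Spn55B. In the list for making and storing fatty acids, 10 of 25 genes were higher and 1 was lower (median 0.22). Of 9 fat body markers tested, 4 were higher and 0 lower in Clk-Jrk (median 0.43). Their list of 10 had a summed TPM of 115711 to 174369 in Clk-Jrk (median 135711). In all 24 wild-type libraries at 25 °C it ran from 52814 to 180615 (median 90048). Among markers of other tissues, 6 of 7 Malpighian tubule (median −1.58), 7 of 17 muscle (−0.42), 7 of 21 ovary (−0.57) and 1 of 20 gut markers (−3.03) were lower in Clk-Jrk, and 4 of 10 haemocyte markers higher (0.32). Their summed TPM in Clk-Jrk ran from 1352 to 2823 for muscle, from 107 to 2956 for ovary, from 18.8 to 1389 for gut and from 171 to 364 for haemocytes, and 7 gut markers had a median of 0 there. The part of these tissues, the fat body included, in the members' differences was not tested. Without the libraries rich in other tissues, 26 members were higher and 9 lower, with medians of 0.21 over the members and 3.4e-05 over all genes.

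Whether the members still followed the day in Clk-Jrk was tested on a cosine and a sine of 24 h together. By edgeR 0 of 60 members passed, beside 0% of the 9348 genes, and 12 of 60 had an unadjusted p under 0.05, against 15.4% of all genes. By limma-trend 0 members passed, and by DESeq2 3 did, against 1.83% of all genes. These were CG13315 (DESeq2 adjusted p = 0.00499), CG11241 (0.0172) and CG11050 (0.041). In simulated data for this comparison 23.7% of DESeq2 calls were false. The same 12 libraries limit this result. In simulated counts of this size edgeR recovered 23% of rhythms with an amplitude of 0.5 and 75% of those with an amplitude of 1. The median amplitude of the members in wild type at 25 °C was 0.34 on log2 CPM with TMM scaling and 0.25 on log2(TPM + 1). A difference in rhythm between the genotypes was not tested, since the wild-type rhythm chose the members.

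The smallest p-values for rhythm in Clk-Jrk belonged to genes with fitted peaks away from dusk. Unless stated otherwise, the peaks and R² values given here are from log2(TPM + 1) and the edgeR p-values from counts. RNA of CG13315 ran from 1142 to 2221 TPM in Clk-Jrk (median 1682), with a fitted peak at ZT 5.06 and an R² of 0.693 (edgeR adjusted p = 0.303). CG11241 peaked at ZT 23.9 (R² 0.742), with means of 14.7 TPM at ZT 2, 9.42 at ZT 10 and 14.6 at ZT 22, whereas its wild-type means were highest at ZT 14 and ZT 18. Psf2 peaked at ZT 3.16, CG13796 at ZT 7.60 and CG11050 at ZT 8.88, with the same adjusted p of 0.303 by edgeR. Nepl6 and CG32032 peaked at ZT 1.44 and ZT 2.44, against ZT 14 and ZT 11.1 in wild type at 25 °C. Elovl7, by contrast, kept a similar fitted course on log2(TPM + 1), with a peak at ZT 10.6 ± 1.1 h and an amplitude of 0.32 ± 0.10 (R² 0.553). In the edgeR fit on counts its peak was at ZT 9.63 with an amplitude of 0.21, and it did not pass (edgeR adjusted p = 0.456). That p does not test the course on log2(TPM + 1).

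**Figure D4:**
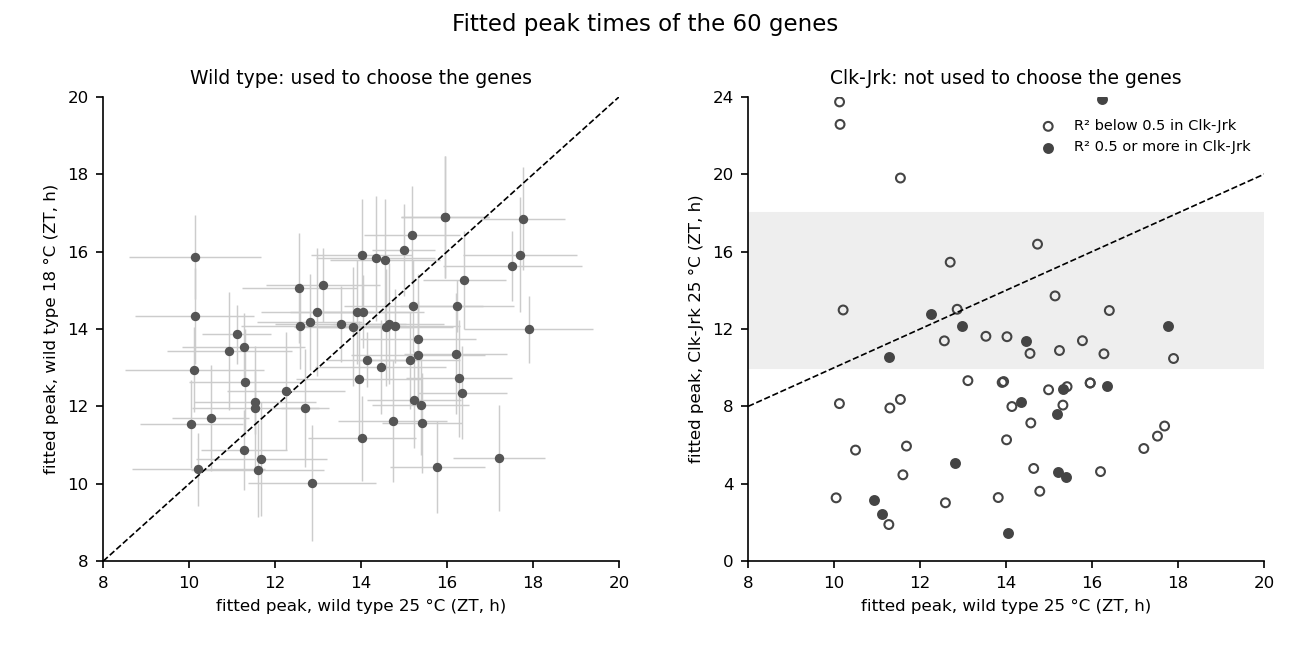
Fitted peak times of the 60 genes (ZT, h). On the left, wild type at 18 °C against wild type at 25 °C with bars of 1 SE, where all points lie between ZT 10 and ZT 18 because the rule chose them so; on the right, Clk-Jrk against wild type at 25 °C, with filled points for an R² of at least 0.5 in Clk-Jrk, the window shaded and dashed lines marking equal times. On the right 19 of 60 points lie in the window.

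Over the whole list, most fitted peaks in Clk-Jrk lay outside the dusk window. They fell in it in 19 of 60 members, against 63.6% of all genes tested and 61% of those at the members' minimum level. On log2 CPM with TMM scaling the count was 10 of 60, against 33.7% of all genes. In the first 6 h of light 17 members peaked (12.5% of genes at that level), in the rest of the day 30 (42.9%), in the first 6 h of dark 9 (35.9%) and in the rest of the night 4 (8.77%). Many of these peak times are poorly defined, with a median R² of 0.311 over 12 libraries, beside 0.271 for genes at that level. An R² of at least 0.5 was reached by 16 of 60 members, against 16.5% of genes at that level, and 5 of these 16 peaked in the window. With a step at lights off as a further term, to stand for a change of incubator, 22 members peaked in the window (69.4% of all genes), and the part of the incubator was not tested otherwise. In Clk-Jrk the summed TPM of Malpighian tubule markers peaked at ZT 8.67 (R² 0.585) and that of oenocyte markers at ZT 6.70 (0.314). The sums of ovary (ZT 15.4, 0.373), muscle (ZT 12.1, 0.315) and haemocyte markers (ZT 11.9, 0.266) peaked in the window. Those of neuron and photoreceptor, gut and fat body markers peaked at ZT 23.7, ZT 18.4 and ZT 0.37 (0.446, 0.0096 and 0.028). The part of these tissues in the members' peak times was not tested.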

How the data were processed

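Transcripts were quantified with kallisto 0.46.2, per the submitters' processing notes; genome build, annotation and library strand were not stated there. The authors deposited an estimated count table and a TPM table per gene for each wild-type temperature and for Clk-Jrk. TPM values were used as deposited by the authors for levels and for 24 h cosine fits on log2(TPM + 1). The deposited estimated counts were rounded and tested with edgeR 4.0.16 (quasi-likelihood, TMM scaling, filterByExpr over all 60 libraries, a setting changed after a first run on 58), with a mean per group and time and Benjamini-Hochberg adjustment over 9348 genes. DESeq2 1.42.0 and limma 3.58.1 were alternatives. The scripts were tested on simulated data. Symbols were available for 13950 of 13969 IDs, and positions come from the BDGP6.54 annotation. The members and gene lists were chosen with earlier results of these data known. Named genes were the first 12 by rank, the 3 on each side of the limit, up to 5 with the largest rise and fall per level comparison, the 5 smallest p for rhythm in Clk-Jrk and members in a functional list. Others named with values were chosen after their values were seen. Replicate numbers were not taken as pairs, since same-numbered samples did not correlate above 0.1 at every time.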

Additional observations from a re-analysis of the deposited data

How the results depend on the processing

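Under the alternatives run, 322 of the single-gene values kept direction and side of the threshold, 12 newly passed, 10 no longer passed and 13 changed sign, each from a value that had not passed. For 18 °C against 25 °C, the sign changed for Nepl6 on log2(TPM + 1) with limma-trend (0.014), with the equal columns kept (0.0057) and between single replicates (-0.17 without replicate 1, 0.15 without replicate 2), and for CG3719 (0.081 and -0.044). For Clk-Jrk, Elovl7 stood at -0.016 by limma-trend. Without replicate 1 and without replicate 2 the values were 0.14 and -0.22 for spin, 0.025 and -0.077 for CG3719, 0.010 and -0.31 for CG13796, 0.22 and -0.42 for Spn55B and 0.10 and -0.24 for Desat1. Without the libraries rich in other tissues they were 0.010 for spin, 0.012 for CG3719 and 0.049 for Spn55B. The cause was not tested. Members lower at 18 °C numbered 5 with the equal columns kept, against 26.7% of all genes. They numbered 2 without replicate 2 (26.4% of all genes) and 6 without replicate 1 (16.7%). Members higher in Clk-Jrk numbered 13 by limma-trend on TPM and 13 to 25 when 1 replicate was left out, and 26 were lower by limma-trend. Rhythm in Clk-Jrk was called for 3 members by DESeq2, and 10 members peaked in the window on log2 CPM. Of the 60 members, 29 were chosen again on log2 CPM, 20 without the libraries rich in other tissues and 21 to 28 from 1 replicate. Fits without a replicate used a cosine and a sine per group in place of a mean per time.

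With the replicate number as a replicate block, 35 members were higher and 4 lower at 18 °C, against 28.2% and 31.0% of all genes tested. In Clk-Jrk 24 were then higher and 9 lower, and 0 were rhythmic there. Deviations of same-numbered samples correlated with a median of 0.30 between the wild-type groups (8 of 10 times over 0.1) and -0.09 between wild type and Clk-Jrk (1 of 6). The limits for a library rich in other tissues (10000 TPM of ovary or gut markers, 1000 of photoreceptor markers) were chosen after seeing the data. A search of member promoters for motifs was planned and not run. On simulated data edgeR recovered 31% of level differences of 0.5 on the log2 scale in the Clk-Jrk comparison (12 against 12 libraries) and 61% between temperatures (22 against 24).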

Other observations

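Values of the other gene lists, which hold no member, are given here as log2 differences without explanation. In the list of sugar and glycogen genes 9 of 25 were higher and 0 lower at 18 °C (median 0.14), and 10 were higher and 2 lower in Clk-Jrk (median 0.25). Of 16 genes for lipolysis and fatty acid oxidation 5 were higher and 1 lower at 18 °C (median 0.28), and 7 were higher and 0 lower in Clk-Jrk (median 0.36). Of 20 chaperone genes 1 was higher and 3 lower at 18 °C (median -0.18), and 15 were lower and 0 higher in Clk-Jrk (median -1.23). The member l(2)efl stood at -0.08 in Clk-Jrk and did not pass (edgeR adjusted p = 0.62). Of 19 genes for folding and translocation in the endoplasmic reticulum 3 were higher and 0 lower at 18 °C (median 0.01). In Clk-Jrk 10 were higher and 0 lower (median 0.26). For 21 autophagy genes the counts higher and lower were 6 and 1 at 18 °C, and 3 and 0 in Clk-Jrk. For 24 amino acid catabolism genes they were 5 and 6, and 10 and 5. For 23 antimicrobial peptide genes they were 8 and 1, and 6 and 2. For 15 core clock genes, which the rule set aside, they were 3 and 1, and 2 and 9.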
